A study of Mus musculus with 4 samples.

Results

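The Shh locus and its limb enhancer, the ZRS, were examined in lists of candidate binding sites of Meis factors in the limb buds of mouse embryos. The members are the summits, the positions of highest signal within a peak, that were called between 28.5 and 29.9 Mb of chromosome 5 in the mm9 genome. This interval of 1.4 Mb held 8 of the 22906 summits called in forelimbs (FLs) and 9 of the 17810 called in hindlimbs (HLs), or 17 of 40716 in all. In each limb the lists hold 0 calls at the ZRS. Shh itself held 3 FL calls and 1 HL call. Of these, 0 had a q of at most 0.05, and 0 had a p of at most 0.0005. The latter was the paper's cutoff for detecting peaks other than those shared by the limbs. The lists extend to a looser p, so the calls at Shh are not peaks by that cutoff. The paper reports no Meis binding at Shh or at the ZRS.

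The buds came from wild-type C57BL/6 embryos at E10.5, the stage of 36 somites, and about 500 buds of each limb type were pooled. Their chromatin was precipitated with 2 antibodies used together, 1 against Meis1a and Meis2a and c and 1 against every Meis1 isoform. For each limb there was 1 library of precipitated chromatin (ChIP) and 1 of chromatin before precipitation (input), with single-end reads of 50 bp. No value therefore has a replicate error, and no test was made between the limbs. In whole buds, strong binding in a few cells and weak binding in many cannot be told apart.

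Sonic hedgehog (Shh) patterns the digits, setting their number and identity through a signal that spreads from a patch of posterior cells, the zone of polarizing activity. In the limb its transcription depends on the ZRS, a distant enhancer that lies in an intron of a neighbouring gene, Lmbr1. Changes within the ZRS cause extra digits, and its loss removes Shh from the limb. Meis1 and Meis2 are homeodomain transcription factors of the TALE class that bind DNA with Pbx and Hox partners and mark the proximal part of the growing limb.

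Shh was taken at 28783000 to 28794000 and the ZRS at 29641000 to 29643000 on chromosome 5 of mm9, both known to the nearest kb. Shh is transcribed from the minus strand, so its start is at the higher coordinate and the ZRS lies upstream of it, with 847 kb between them. Distances below run from the Shh start, with upstream, towards the ZRS, as positive. Gene models were those of GRCm38, a later build, so genes are set beside the calls only by distance, each counted from the Shh start of its own build. The ZRS, at 847.0 to 849.0 kb, then falls within an intron of Lmbr1 that follows exon 5 and extends from 825.7 to 856.5 kb.

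For each summit the lists give a fold, the ratio of ChIP signal to local background after 1 was added to each, with a p and a q from the authors' peak caller. The number of ChIP reads over a summit was worked out from its fold and p by an assumed form of the peak caller's formula. Only whole numbers were admitted, and the result was not checked against the reads themselves. A single number fitted 22898 of the 22906 FL summits and 17808 of the 17810 HL summits, and every call of the Shh interval. The median summit of the whole list rested on 15 reads in FLs and 12 in HLs, and the strongest on 238 and 200. Over the lowest background that the peak caller allowed, a summit was listed from 10 reads in FLs and 9 in HLs, which corresponds to the cutoff of the lists, a p of 0.022. A place without a call is a place below that cutoff, and not one shown to be unbound.

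At the ZRS, 0 FL and 0 HL peaks shared a base with the enhancer, and 0 lay within 50 kb of it in either limb. The nearest FL summits were at 29397043, 244.0 kb away on the Shh side, and at 29798627, 155.6 kb away on the far side. The former had a fold of 2.66 with 16 reads, and the latter had a fold of 2.55 with 15 reads. In HLs the nearest summits lay closer, 57.5 kb away at 29583509 on the Shh side and 62.2 kb away at 29705158 on the far side. The nearer of these had a fold of 2.89 with 11 reads, and the other had a fold of 2.78 with 13 reads. All 4 of these flanking calls had a q of 1.

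The ZRS thus lay in a gap between calls of 401.6 kb in FLs and 121.6 kb in HLs. Gaps of at least this length were not rare in either list. They were 5.87% of all FL gaps and took up 49.0% of the length between FL summits. In HLs they were 24.0% of the gaps and 83.4% of the length. The median gap was 30.4 kb in FLs and 36.2 kb in HLs. The map of the calls along the interval shows the enhancer inside both gaps.

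**Figure D1:**
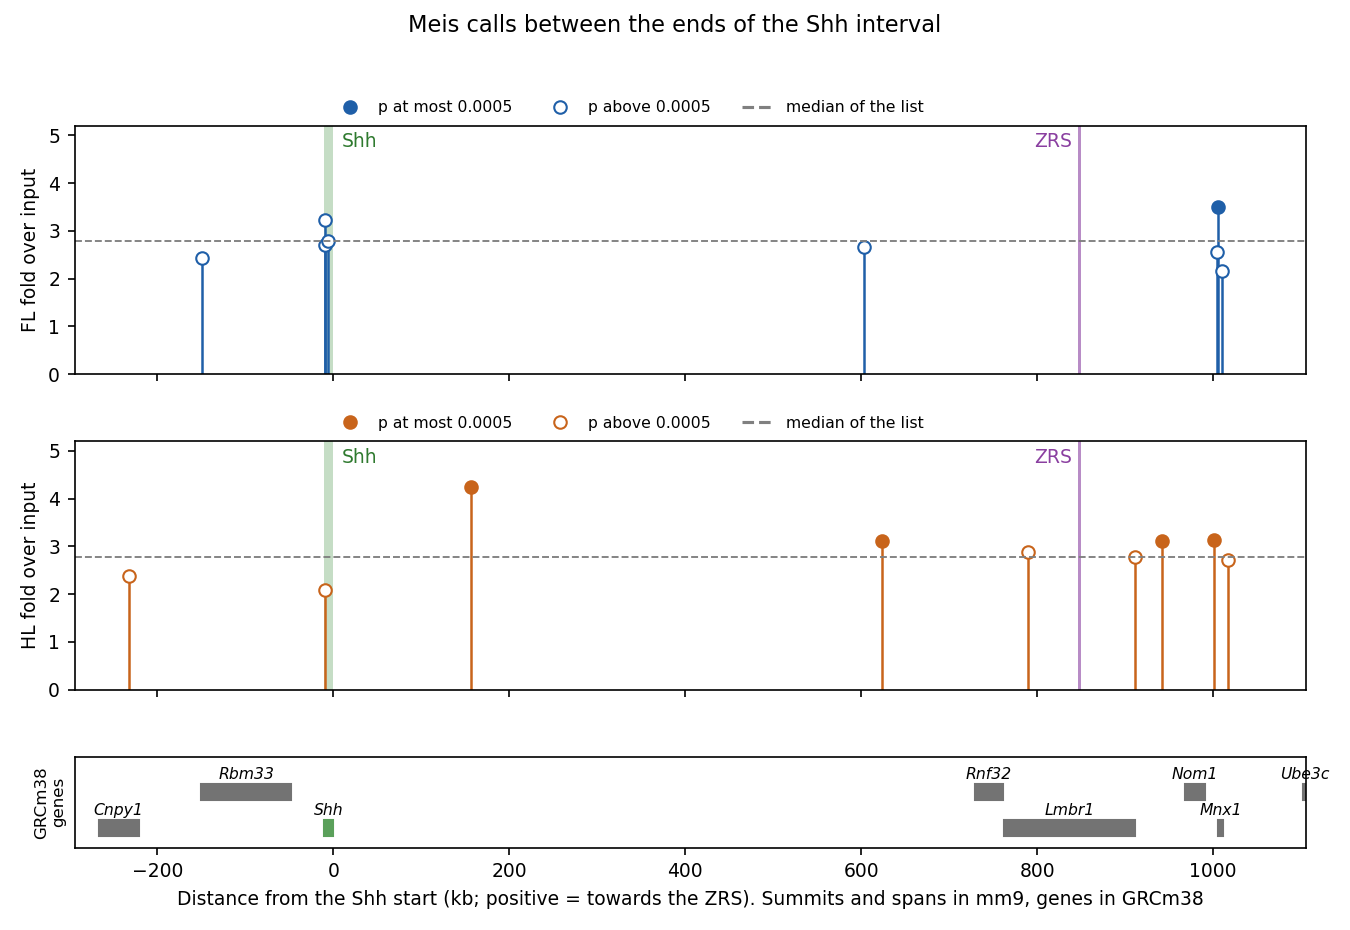
Fold enrichment of each FL and HL call (vertical axis, ratio of ChIP to background) against its distance from the Shh start in kb (horizontal axis, upstream positive), with protein-coding genes of GRCm38 drawn by the same distance, filled circles for p at most 0.0005 and a dashed line at the median fold of each list. The 8 FL and 9 HL calls have folds between 2.09 and 4.25, 4 of them lie at Shh, and 0 lie at the ZRS.

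Within Shh, most of the 4 calls lay towards the 3′ end of the transcribed region, and the FL call at 28788225 lay near its middle. The order from the 3′ end was an HL call at 28784549, FL calls at 28784772 and 28785010, and an FL call at 28788225. The strongest was the FL call at 28784772 (peak from 28784717 to 28784835), with a fold of 3.23 and 16 reads over a background of 3.36 reads (95% exact Poisson interval of the reads 9.15 to 26.0). Its p was 0.000805 and its q was 1. It ranked 6340 by fold among the FL summits, above 69.9% of them.

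The FL call at 28785010 (28784938 to 28785082) was weaker, with a fold of 2.70, a p of 0.00397 and 13 reads (6.92 to 22.2). The FL call at 28788225 (28788131 to 28788268) had a fold of 2.79, a p of 0.0011 and 14 reads (7.65 to 23.5). Both had a q of 1, and both were close to the median fold of the FL list, which was 2.78. The single HL call, at 28784549 (28784501 to 28784668), had a fold of 2.09, a p of 0.0166 and a q of 1. It rested on 9 reads (4.12 to 17.1) over a background of 3.41 reads and stood above only 3.6% of the HL summits.

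None of the 3 FL peaks overlapped the HL peak. The HL peak ended 48 bp before the nearest FL peak, with 223 bp between the summits, and the next FL peak followed after 102 bp, with 238 bp between its summit and the preceding one. The last FL peak lay 3048 bp further on, so that all 4 peaks spanned 3768 bp. The 3 FL summits at Shh spread over 3.45 kb. Of all FL summits, 13.5% (3089 of 22906) had at least 2 others within that distance on either side. Among those with q above 0.05 the share was 8.93%. Summits counted in this way can span more than 3.45 kb and can share a peak, while the 3 at Shh lay in separate peaks. The shares are therefore upper limits for groups as tight as that at Shh, whose own frequency was not counted.

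In the GRCm38 annotation, Shh has 3 exons, exon 1 within the first kb, exon 2 from -5.93 to -5.67 kb and exon 3 from -10.44 to -8.65 kb. The calls at -9.5, -9.2 and -9.0 kb fall at the distance of exon 3, which holds the end of the coding sequence and the 3′ UTR, and the call at -5.8 kb falls at the distance of exon 2. As the Shh position in mm9 was known only to the nearest kb, it could not be settled which of these summits are exonic and which intronic. An antisense RNA, 9530036O11Rik, begins at -9.0 kb and runs across Shh and far upstream of it. Neither limb had a call at the Shh start or just upstream of it. The nearest upstream call was at 603.0 kb in FLs and at 156.0 kb in HLs.

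**Figure D2:**
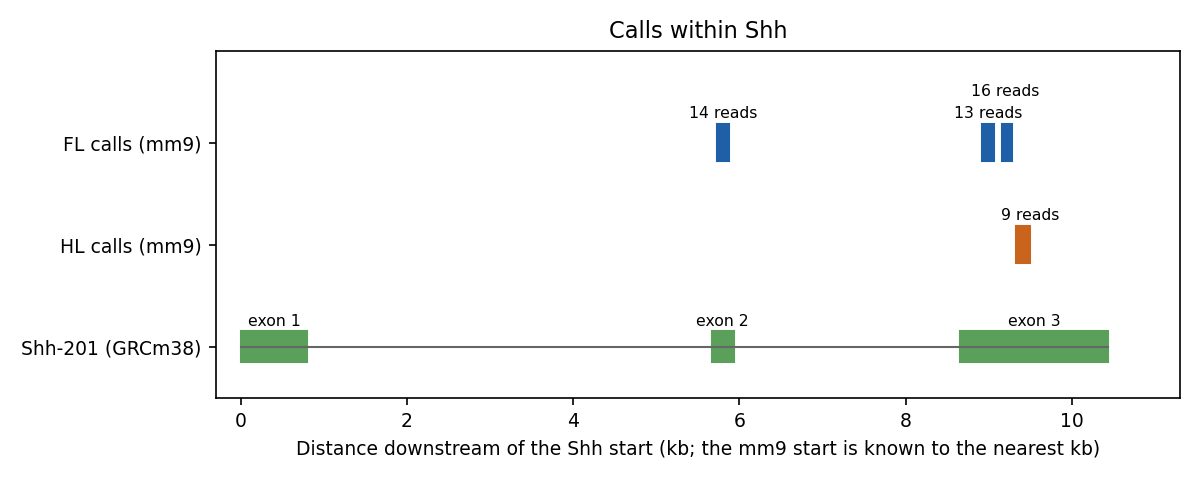
FL peaks, HL peak and the exons of Shh (rows from top to bottom) drawn to scale against the distance downstream of the Shh start in kb, with the ChIP reads over each summit written above it; peaks are in mm9 and exons in GRCm38. The 3 FL peaks carry 13 to 16 reads and the HL peak 9, and the first 5 kb of the gene hold 0 calls.

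Upstream of Shh lies a long stretch poor in protein-coding genes, which is known to hold Shh enhancers for several organs. Between the Shh start and the ZRS it held 1 FL call and 3 HL calls. The strongest call of the whole interval was among these. It was an HL call at 28950017 (28949949 to 28950108), at 156.0 kb and 691.0 kb short of the ZRS, within the span of the antisense RNA 9530036O11Rik. Its fold was 4.25, its p was 6.42e-06 and its q was 0.0806, with 17 reads (9.90 to 27.2) over a background of 2.69 reads. By fold it ranked 1401, above 91.7% of the HL summits. The nearest FL summit was 162.0 kb away, in Shh, so this place had no FL counterpart.

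The other calls of this stretch came in places without a protein-coding gene, or in Lmbr1. An FL call at 29397043 (29396973 to 29397104, 603.0 kb) had a fold of 2.66 and a p of 0.00453, and an HL call at 29418043 (29417889 to 29418088, 624.0 kb) had a fold of 3.12 and a p of 0.00024, with 12 reads. They lay 21.0 kb apart, between 9530036O11Rik, which ends at 466.7 kb, and Rnf32, a gene for a RING finger protein, which starts at 728.7 kb. The HL call at 29583509 (29583482 to 29583649, 789.5 kb) was the only call of either limb at a distance inside Lmbr1, which extends from 762.5 to 911.1 kb. It had a fold of 2.89 and a p of 0.00124, and lay between the distances of exons 12 and 13, in another intron than the ZRS.

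Beyond the ZRS, 3 FL calls and 4 HL calls were listed, most of them around Mnx1, a homeobox gene known for its role in motor neurons and the pancreas. The HL call at 29705158 (29705080 to 29705223, 911.2 kb) fell at the distance of the start of Lmbr1 and had a fold of 2.78, a p of 0.00149 and 13 reads. The HL call at 29736175 (29736104 to 29736228, 942.2 kb) fell between Lmbr1 and Nom1, a gene for a nucleolar protein, and had a fold of 3.12, a p of 0.00024 and 12 reads. Both had a q of 1, and the nearest FL summits were 93.5 and 62.5 kb away.

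Mnx1 extends from 1005.8 to 1011.2 kb in GRCm38. As the builds differ and the Shh start in mm9 was known only to the nearest kb, it could not be settled which nearby calls lie inside Mnx1. The strongest FL call of the interval, at 29799047 (29798971 to 29799140, 1005.0 kb), lay near the distance of the Mnx1 3′ end. It had a fold of 3.50, a p of 5.11e-05 and 22 reads (13.8 to 33.3) over a background of 4.64 reads. Its q was 0.196, the only FL q below 1 in the interval, and it stood above 77.8% of the FL summits by fold. Beside it, an FL call at 29798627 (29798529 to 29798657) had a fold of 2.55, a p of 0.00398 and a q of 1. An FL call at 29804471 (29804351 to 29804491, 1010.5 kb), near the distance of the Mnx1 start, was the weakest FL call of the interval, with a fold of 2.15, a p of 0.0202 and 13 reads. It stood above 4.9% of the FL summits.

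The HL calls near Mnx1 flanked the FL calls without touching them. The HL call at 29794501 (29794440 to 29794539, 1000.5 kb) had a fold of 3.14, a p of 0.000361 and 15 reads, and that at 29810569 (29810519 to 29810626, 1016.6 kb) had a fold of 2.71, a p of 0.000997 and 12 reads. Their summits were 4.13 and 6.10 kb from the nearest FL summit.

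On the other side of Shh, past its 3′ end, each limb had 1 weak call. The FL call at 28644749 (28644691 to 28644870, -149.3 kb) had a fold of 2.43, a p of 0.00535 and 12 reads and lay at the distance of the start of Rbm33, a gene for an RNA-binding protein. The HL call at 28561364 (28561301 to 28561400, -232.6 kb) had a fold of 2.37, a p of 0.0132 and 10 reads and lay at a distance inside Cnpy1, of the Canopy family of genes. These calls were 83.4 kb from each other and stood above 23.5% of the FL and 18.5% of the HL summits.

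As a set, the FL calls had folds from 2.15 to 3.50 with a median of 2.68, and the HL calls from 2.09 to 4.25 with a median of 2.89, while the median of either list was 2.78. The calls of the interval therefore lay around the middle of their lists, with 5 of 8 FL calls and 4 of 9 HL calls below the median. Reads per call ran from 12 to 22 in FLs (median 14.5) and from 9 to 17 in HLs (median 12). The plot of reads per call shows that the intervals of all calls overlap within each limb. Such an overlap is not a test of a difference, and the reads stand over differing backgrounds. Differences between calls were not tested.

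**Figure D3:**
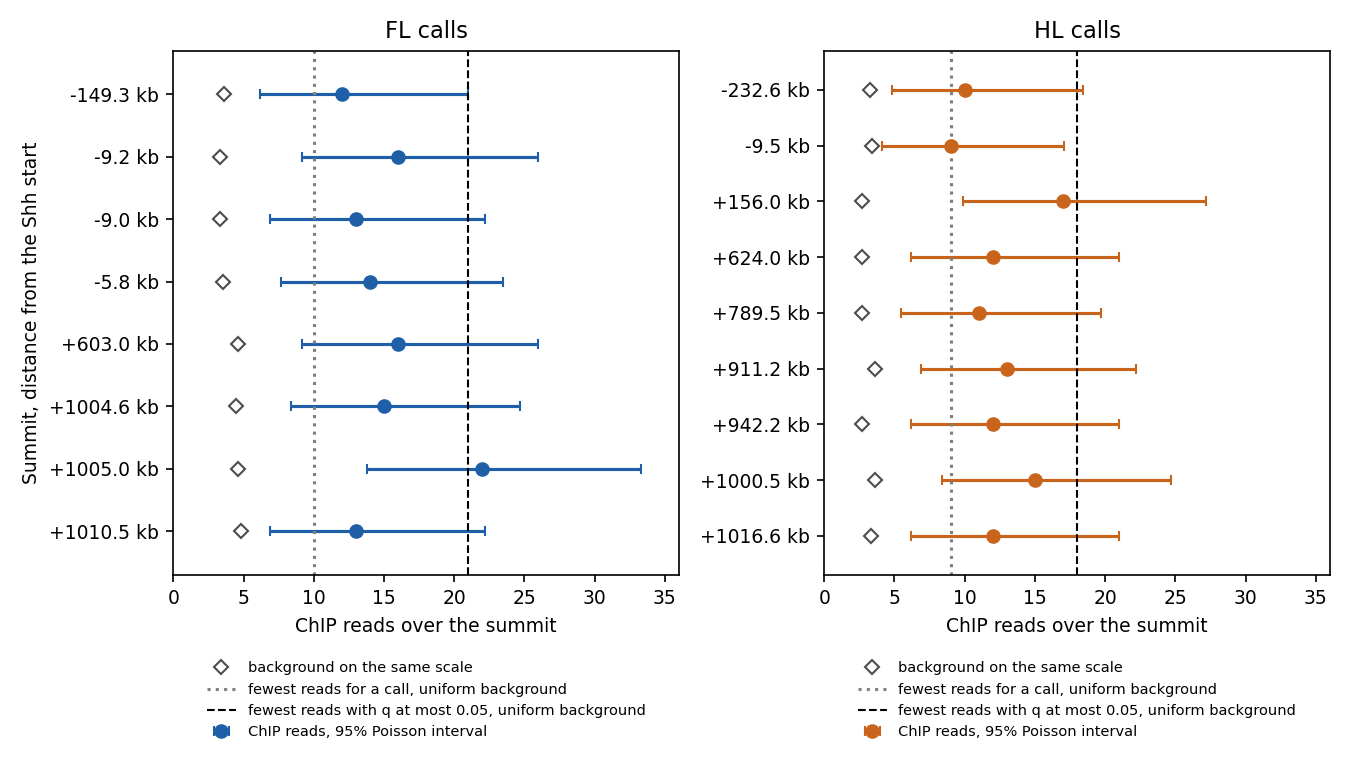
ChIP reads over each FL (left) and HL (right) summit of the interval with 95% exact Poisson intervals, against the background on the same scale, by distance from the Shh start. Reads run from 12 to 22 in FLs and 9 to 17 in HLs, and lines mark the fewest reads for a call (10 and 9) and for a call with q at most 0.05 (21 and 18) over the uniform background.

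Among the 8 FL calls, 0 passed a q cutoff of 0.05, which allows a share of up to 37.5%, against 17.5% of all FL summits (4006 of 22906). Among the 9 HL calls 0 passed it, which allows up to 33.3%, against 10.3% of all HL summits (1841 of 17810). At these numbers the shares in the interval cannot be told apart from those of the lists. With a fold of at least 5 besides, the shares of the lists were 7.6% in FLs and 4.67% in HLs, and the interval held 0 in each limb. A q of 1 was given to 7 of 8 FL and 8 of 9 HL calls, and to 68.5% and 78.4% of the lists.

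A p of at most 0.0005 was reached by 1 of 8 FL calls (12.5%, 95% exact binomial interval 0.316 to 52.7%), the one beside Mnx1, against 32.1% of all FL summits. In HLs it was reached by 4 of 9 calls (44.4%, 13.7 to 78.8%), against 37.4% of all HL summits. The HL calls were those at 156.0, 624.0, 942.2 and 1000.5 kb, and both intervals hold the share of the list. The limbs are not on one footing at this cutoff, since 12 reads over the uniform background sufficed for it in HLs and 17 were needed in FLs.

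In the interval, 0 of 8 FL peaks overlapped an HL peak, whereas 22.6% of all FL peaks did so, and 13.2% of those with q above 0.05. Likewise 0 of 9 HL peaks overlapped an FL peak, against 29.0% of all HL peaks and 22.2% of those with q above 0.05. With so few peaks a count of 0 allows up to 37.5% in FLs and 33.3% in HLs, so no difference from the lists was detectable. The nearest pair, at Shh, had summits 223 bp apart.

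The number of calls in the interval was near the middle of what other intervals of this length held. FL summits numbered 5.71 per Mb in the interval and 8.71 per Mb over the whole list, a ratio of 0.656, and HL summits numbered 6.43 and 6.77 per Mb, a ratio of 0.949. When the chromosomes were divided end to end into 1867 intervals of 1.4 Mb, the median held 8 FL summits (quartiles 3 and 17) and 6 HL summits (quartiles 1 and 13). In FLs 50.2% of these intervals held no more summits than that around Shh, and in HLs 65.0%. Intervals with 0 summits of q at most 0.05 made up 33.6% in FLs and 55.2% in HLs.

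The Shh interval lay inside a much longer stretch without calls of q at most 0.05. The nearest FL calls with such a q were at 25153744 (fold 6.24, q = 1.17e-06) and at 36572648 (fold 5.52, q = 1.27e-05), 11.4 Mb apart and with 33 reads each. In HLs they were at 25035712 (fold 4.11, q = 0.0313) and at 36572670 (fold 5.81, q = 9.41e-06), 11.5 Mb apart. The right-hand calls of the limbs lay at the same place. Only 6 of 3986 such FL gaps were as long, 4 of them on the X chromosome and 2 on autosomes, that around Shh included. In HLs 12 of 1821 were as long, 4 of them on the X chromosome. Gaps of such a length took up 4.47% of the length between these FL calls and 9.74% in HLs.

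This stretch was not empty of weaker calls. It held 100 FL calls with q above 0.05, or 8.76 per Mb, and 98 such HL calls, or 8.49 per Mb. The whole lists held 8.71 FL and 6.77 HL calls per Mb. These count calls of every q, of which 1.52 and 0.7 per Mb had a q of at most 0.05, so the densities are not of like calls. The highest fold in the stretch was 3.59 in FLs (lowest q 0.162) and 4.25 in HLs (lowest q 0.0806), the latter being the HL call at 156.0 kb. A p of at most 0.0005 was reached by 14.0% of these FL calls and 23.5% of these HL calls, against 32.1% and 37.4% of the lists. A lower share was built in, since the stretch was delimited by the absence of calls with a low q. Overlap with the other limb was found for 6 of 100 FL calls (6.0%) and 6 of 98 HL calls (6.12%), against 13.2% and 22.2% of peaks with q above 0.05 in the whole lists. Here too a lower share was built in. Peaks of low q in the other limb were largely absent from the stretch, but were among those overlapped in the lists. Nothing is read from this difference. The stretch was delimited after the calls were seen, and its length depends on the cutoff. With a p of at most 0.0005 the stretch without a call shrank to 1.4 Mb in FLs and 0.55 Mb in HLs, and with a q of at most 0.1 to 3.91 Mb in HLs, where the call at 156.0 kb then ended it.

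**Figure D4:**
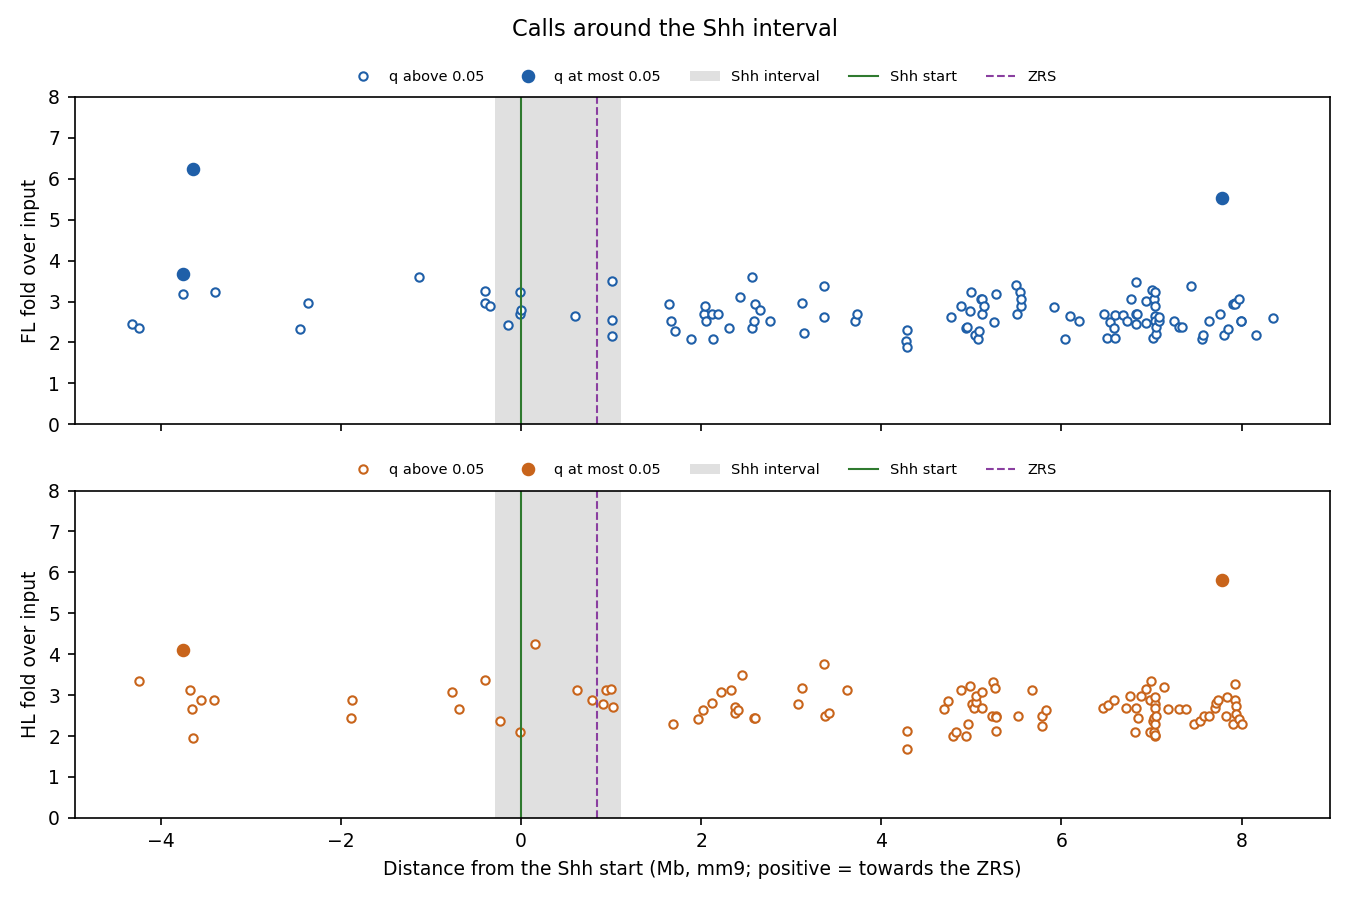
Fold enrichment of FL and HL calls (vertical axis) against the distance from the Shh start in Mb, with calls of q at most 0.05 marked and the Shh interval shaded. Calls with q at most 0.05 stand on both sides of a stretch of 11.4 Mb in FLs and 11.5 Mb in HLs, in which weaker calls go on at 8.76 and 8.49 per Mb.

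The calls around Shh were set beside those around 2 other genes of the posterior and early limb bud, Hand2, a bHLH factor that acts upstream of Shh, and Fgf10, a growth factor needed for limb outgrowth. In 1.4 Mb centred on the Hand2 start there were 25 FL summits, 9 of them with q at most 0.05, and 20 HL summits, 3 with such a q. Around Fgf10 there were 11 FL summits, 5 with such a q, and 11 HL summits, 2 with such a q. The Shh interval, with 8 and 9, held 0 with such a q. The highest folds were 20.38 in FLs and 12.54 in HLs around Hand2 and 13.14 and 9.92 around Fgf10, against 3.50 and 4.25 around Shh. FL peaks that overlapped an HL peak numbered 11 around Hand2 and 4 around Fgf10, against 0 around Shh. Hand2 and Fgf10 could be placed in mm9 only because a peak shared by the limbs had been assigned to them, while Shh was placed without regard to peaks. That choice favours higher values around them, so the counts, folds and overlaps are given side by side and nothing is read from the difference.

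Shh acts through a pathway of shared parts, and other genes of it were examined where their start in mm9 could be had. Starts were worked out from distances in a supplementary table of peaks common to FLs and HLs. A gene could therefore be placed only if such a peak had been assigned to it, and Shh was not chosen in this way. Neither the presence of a peak near these genes nor the height of their peaks above those at Shh is a finding, and the values describe the genes themselves. Of 12 other genes of the Hedgehog pathway, 5 were placed, and of 17 genes that act upstream of Shh in the limb, 10 were. Ptch1, Smo, Gli1, Gli2, Gli3, Sufu, Disp1, Hoxd9, Hoxd10, Hoxd11, Hoxd13, Etv5, Pbx2 and Fgf8 were not placed and not analysed here as genes of their own.

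Within 100 kb of the start, all 5 placed Hedgehog genes had peaks with q at most 0.05 in both limbs, which the choice of genes favours. Cdon and Boc, co-receptors that bind Hedgehog at the cell surface, had highest folds of 7.11 and 7.23 in FLs. In HLs these were 6.48 and 3.77. The FL peak of Cdon, with 63 reads, lay 0.569 kb from its start. Gas1, the remaining co-receptor, had a peak 52.2 kb from its start in both limbs, with a fold of 4.29 in FLs (47 reads) and 6.85 in HLs (45 reads).

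The inhibitor Hhip, which binds and sequesters Hedgehog, had its highest FL and HL peaks 33.7 kb from its start, with folds of 5.36 and 6.48. Hhat, the acyltransferase that adds palmitate to Hedgehog, had its highest FL fold, 4.84, at 25.5 kb from the start and its highest HL fold, 5.40, at 90.6 kb. The highest folds near these genes thus ran from 4.29 to 7.23 in FLs and from 3.77 to 6.85 in HLs.

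Of the 10 placed genes that act upstream of Shh, 8 had a peak with q at most 0.05 within 100 kb in FLs and 7 in HLs. The choice of genes favours these counts as well, and no share over all genes is given beside them. The most reads were found near Hoxd12, one of the 5′ HoxD genes that drive Shh in the posterior bud, with 238 in FLs (fold 11.63) and 54 in HLs (fold 5.45). These summits lay 4.93 and 4.79 kb upstream of the Hoxd12 start, at a distance that falls inside the neighbouring gene Hoxd13 in GRCm38. Twist1, a bHLH factor of the limb mesenchyme, had a fold of 6.79 in FLs (43 reads) and 2.32 in HLs (26 reads, q = 1) at 10.4 kb. That HL call had more reads than the HL median of 12 but a lower fold than the HL median of 2.78. By the assumed formula, its low fold goes with a high background and not with few reads. Gata6, a zinc-finger factor that restrains Shh in the anterior bud, had the higher fold in HLs, 4.64 with q = 0.0022, against 3.41 with q = 0.499 in FLs.

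For 1 of these genes, Ets1, an ETS factor known to bind the ZRS, neither limb had a call with q at most 0.05 within 100 kb. Its highest fold was 3.59 in FLs (q = 0.499), and 0 HL peaks lay within 100 kb. Etv4, an ETS factor that limits Shh to the posterior margin, had a fold of 4.83 in FLs (q = 0.000321) and 3.80 in HLs (q = 0.279).

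**Figure D5:**
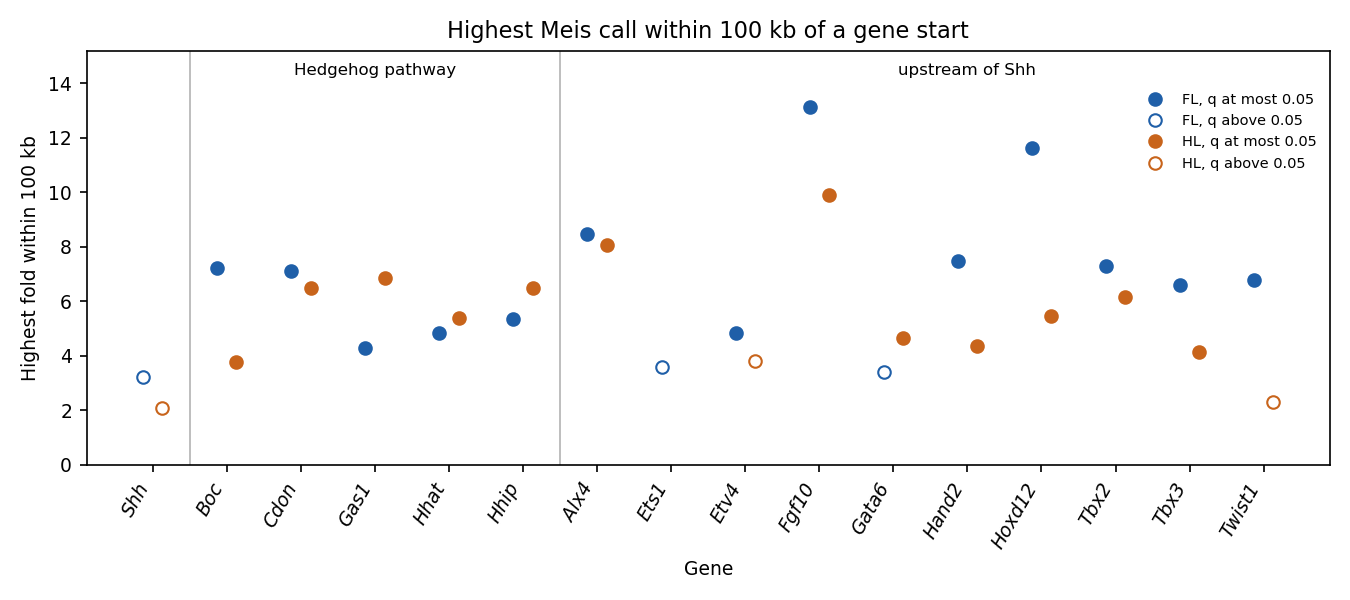
Highest fold of any FL and HL peak within 100 kb of the start of Shh and of 15 other genes of the Hedgehog pathway or upstream of Shh (ratio of ChIP to background), each point 1 library. Shh lies at 3.23 in FLs and 2.09 in HLs, and the other genes are not a fair comparison with it, since they were placed only because a shared peak had been assigned to them.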

How the data were processed

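ChIP-seq peak lists of FL and HL buds, 1 ChIP library per limb, were analysed, and the 2 input libraries served only in the authors' peak calling. The authors trimmed reads with cutadapt (1.3, per the submitters' processing notes), mapped them to mm9 with BWA, marked duplicates and filtered the alignments. Peaks of each ChIP library were called with MACS2 over the matching input, several summits per peak being allowed. The authors deposited lists that extend to a p of 0.022. They used this cutoff to find peaks shared by the limbs, and a p of 0.0005 to find peaks specific to a single limb. The deposited fold is the authors' ratio of ChIP to background, and the −log10 p and −log10 q are those of the authors' peak caller. The deposited score is 10 times the −log10 p, and the authors give each summit as an offset from the peak start. Positions are printed counted from 1.

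Members were the summits from 28.5 to 29.9 Mb of chromosome 5, with the positions of Shh and the ZRS taken from the rule that defined the interval. Peaks sharing at least 1 bp were taken as overlapping. ChIP reads were solved from fold and p. The pileup was taken as whole reads times one factor per library (0.4356 in FLs, 0.5868 in HLs), p as the Poisson tail, and the background as the uniform one (1.464 and 1.58) or that of the input, with tolerances of 0.02 reads and 0.0002. Both steps were checked on simulated data. The simulated reads followed the same formula, so the formula itself was assumed and not checked. Intervals (95%, exact Poisson for reads and exact binomial for shares) and the limit for a count of 0 (3 counts) cover counting error only. Gene starts in mm9 came from peak-to-gene distances in a supplementary table. GRCm38 annotation (GENCODE) served only for distances, and no coordinate was converted.

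Named were Shh, Lmbr1, the genes in the interval, its calls and the placed pathway genes. Some genes of the lists are not reported here. Members and lists were chosen with earlier results of these data known. Alternatives changed the p, q or fold cutoff, the interval, the windows, the overlap required and whether summits or peaks were counted. Tools were Python (3.11.15), scipy (1.17.1), pandas (2.3.3), numpy (2.4.6) and, for plots, matplotlib (3.10.9).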

Additional observations from a re-analysis of the deposited data

How the results depend on the processing

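Of 56 alternatives, 44 left a result unchanged or within 1.5 times its value, and 12 moved it. The counts of summits in the interval moved with the cutoff, from 8 to 1 in FLs and from 9 to 4 in HLs at a p of at most 0.0005, and to 0 in both limbs at a q of at most 0.05, with or without a fold of at least 5. The ratio of summits per Mb to the whole list then fell to 0 in both limbs. The count of HL calls at the ZRS was 0 within 50 kb and 3 within 100 kb, while that of FL calls was 0 in both windows. At Shh the counts stayed at 3 and 1 from the gene itself out to 100 kb. The overlap between limbs, 0 at 1 bp, was also 0 when summits within 100 bp were counted, the only alternative that could have raised it. The stricter alternatives, a reciprocal overlap of 50% and the cutoffs on p or q, could only return 0. They are nevertheless among the alternatives counted as unchanged. The stretch without calls around Shh, 11.42 Mb in FLs and 11.54 Mb in HLs at a q of at most 0.05, was 1.4 and 0.55 Mb at a p of at most 0.0005, and in HLs 3.91 Mb at a q of at most 0.1. The alternatives for this stretch and for the windows around pathway genes were chosen after seeing the data. No paired analysis was possible because each limb had 1 ChIP library and no test was made. Depth limits all of this, since a site under about 10 reads in FLs or 9 in HLs could not be listed, and a single library leaves biological variation unmeasured.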
